A study of Mus musculus with 9 samples.

Results

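The genes described here belong to muscle protein turnover: 8 Asb adaptors (Asb2, Asb4, Asb5, Asb8, Asb11, Asb12, Asb14 and Asb15) and the atrophy ligases Trim63 and Fbxo32, followed across 9 arrays of cultured mouse myoblasts. They were 10 of 19661 genes measured. They were taken by symbol, each through its brightest probe set with a single symbol, and the symbols had been chosen from earlier results of these same 3 comparisons. Their differences between groups are therefore given as a description, without p-values. The myoblasts were of Balb/c background and skeletal muscle origin, and 3 arrays each came from cells carrying an empty vector (the control), from a Pax3 overexpression group and from a Pax7 overexpression group. All were grown in F10 medium with 20% serum and 4 ng/ml basic fibroblast growth factor, that is, in growth medium. Neither the vector's promoter nor whether a group was 1 clone or several cultures is given in the sources used here. Errors and p-values therefore measure only the spread between arrays, which may be technical.

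Asb proteins carry ankyrin repeats, which bind a substrate, and a SOCS box, which docks through elongins B and C onto cullin-5 and its RING partner to form a ubiquitin ligase. Several are made mainly in striated muscle. Trim63 (MuRF1) is a RING ligase of the sarcomere, and Fbxo32 (atrogin-1, MAFbx) is an F-box adaptor of a cullin-1 ligase. Both are induced in wasting muscle by FoxO factors and glucocorticoids, and Myog, which also drives differentiation, activates them after denervation.

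Among the 10 genes there were 3 patterns. Asb4, Asb5, Asb15, Trim63 and Fbxo32 stood highest in control arrays, lower in Pax3 arrays and lowest in Pax7 arrays, with no overlap between any groups. Asb2 and Asb8 were lower in both Pax3 and Pax7 arrays than in control arrays, while the Pax3 and Pax7 arrays overlapped. Asb11, Asb12 and Asb14 overlapped in all 3 groups. The distances were very unequal. Among the 7 genes whose groups did not overlap, they ran from 27.3-fold (Asb4) to 1.16-fold (Asb8) between Pax7 and control arrays. Between Pax3 and control arrays they ran from 17.1-fold (Asb4) to 1.08-fold (Asb5).

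**Figure D1:**
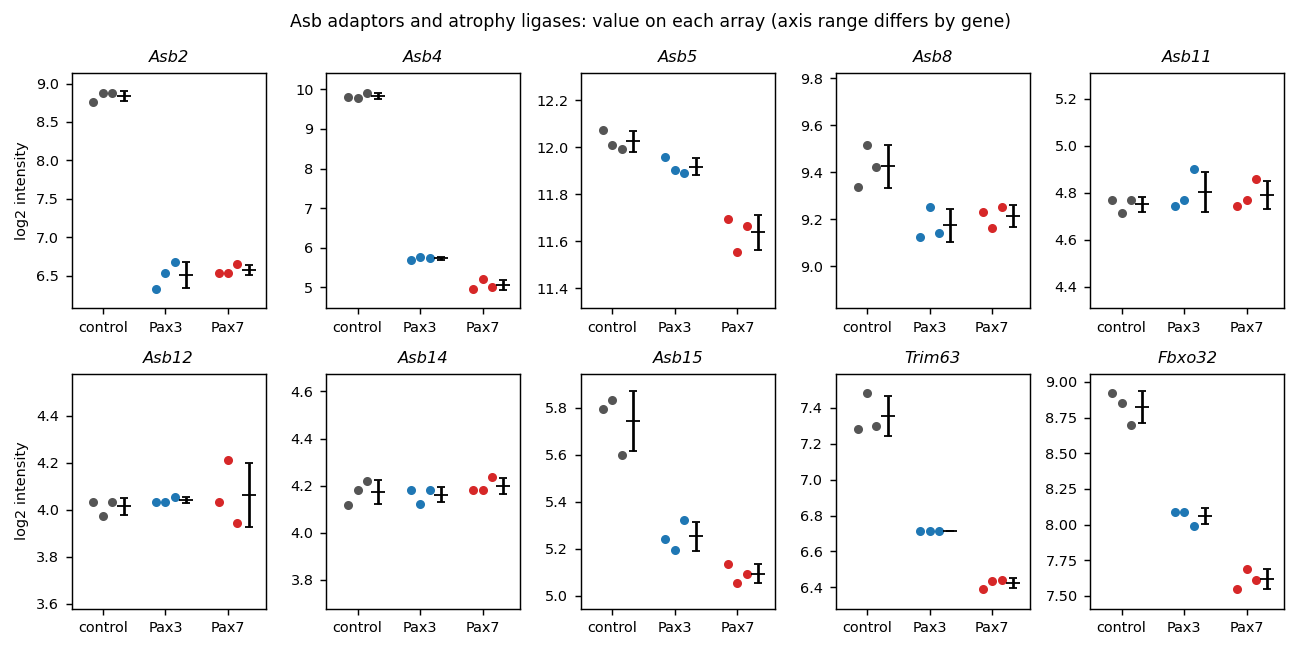
Log2 intensity (vertical axis) of each of the 10 genes on each array (points) in control, Pax3 and Pax7 arrays, with the mean and SD of 3 arrays beside the points; the axis range differs by gene. Control points of Asb2, Asb4, Asb15, Trim63 and Fbxo32 sit above all other points, while Asb11, Asb12 and Asb14 overlap in all groups.

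Promoter windows were matched by symbol in RefSeq (build GRCm38.p6) for 9 of the 10 genes, with 14 windows in all, each from 250 bases before to 50 after an annotated start. Those shown here are the first annotated starts of the 2 genes with the largest differences (Asb2 and Asb4), of the one that differed least among those without overlap against control in the Pax3 arrays (Asb5), and of Trim63. They lie at chr12:103355952-103356251 (Asb2, minus strand), chr6:5383136-5383435 (Asb4, plus strand), chr8:54550081-54550380 (Asb5, plus strand) and chr4:134314870-134315169 (Trim63, plus strand). Capitals mark a match to the muscle E-box CAGCTG, the FoxO motif GTAAACA, the MEF2 box or the serum response factor's CArG box, on either strand.
Asb2: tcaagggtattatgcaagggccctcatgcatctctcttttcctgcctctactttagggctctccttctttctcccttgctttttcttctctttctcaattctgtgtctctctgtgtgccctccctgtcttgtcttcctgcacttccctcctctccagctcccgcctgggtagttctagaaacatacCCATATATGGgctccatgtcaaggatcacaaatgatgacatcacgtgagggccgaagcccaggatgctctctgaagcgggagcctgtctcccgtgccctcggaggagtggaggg
Asb4: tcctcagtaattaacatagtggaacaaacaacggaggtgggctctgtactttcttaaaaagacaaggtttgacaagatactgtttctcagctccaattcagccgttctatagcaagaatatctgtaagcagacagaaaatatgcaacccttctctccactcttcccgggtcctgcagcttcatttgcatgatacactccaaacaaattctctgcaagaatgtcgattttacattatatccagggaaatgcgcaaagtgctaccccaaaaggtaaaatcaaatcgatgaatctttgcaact
Asb5: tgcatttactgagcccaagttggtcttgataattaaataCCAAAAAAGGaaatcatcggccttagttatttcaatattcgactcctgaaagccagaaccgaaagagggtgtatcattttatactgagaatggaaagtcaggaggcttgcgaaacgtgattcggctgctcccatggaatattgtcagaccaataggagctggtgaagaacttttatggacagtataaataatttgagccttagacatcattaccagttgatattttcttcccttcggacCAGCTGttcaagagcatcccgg
Trim63: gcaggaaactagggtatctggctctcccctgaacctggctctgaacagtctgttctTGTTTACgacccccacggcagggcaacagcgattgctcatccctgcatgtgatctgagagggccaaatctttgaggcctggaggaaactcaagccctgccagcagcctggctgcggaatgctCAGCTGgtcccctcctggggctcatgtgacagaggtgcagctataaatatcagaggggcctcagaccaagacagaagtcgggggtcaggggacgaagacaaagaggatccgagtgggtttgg

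The Trim63 window held the FoxO motif at -194 and CAGCTG at -72, counted from the start. It was the single window of the 14 with the FoxO motif, which 3.65% of all 32851 windows hold. CAGCTG lay in 3 of the 14 windows (Asb2 at its other start, Asb5 and Trim63) and in 16.3% of all windows. The CArG box lay in 2 (Asb2 at -64 and Asb5 at -211) and in 1.63% of all. The MEF2 box lay in 3 windows, those of Asb12, Asb14 and the second start of Asb5, and in 3.19% of all. Neither Asb4 window held any of these 4 motifs. The looser E-box CANNTG, which includes CAGCTG, lay in 12 of the 14 windows and in 72.3% of all. A pair of TAAT motifs facing each other 2 or 3 bases apart, an arrangement that paired-type homeodomains bind, lay in 0 of the 14 windows. Such pairs lay in 0.39% and 0.487% of all windows, too few for 0 of 14 to be informative. The single TAAT motif lay in 10 of the 14 windows and in 58% of all. These are matches of letters, and the arrays measured no binding. Which start the myoblasts used was not measured.

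The overexpressed genes followed their labels: the Pax3 signal averaged 5.83 in control and 11.05 in Pax3 arrays, and the Pax7 signal 10.51 in control and 12.28 in Pax7 arrays (limma adjusted p = 2e-13 and 4.04e-10). In Pax3 arrays the Pax7 signal was lower than in control, at 8.18, and in Pax7 arrays the Pax3 signal was higher, at 6.82 (limma adjusted p = 9.86e-11 and 2.37e-08). The 8 myoblast markers were all measured and had a mean log2 intensity of 11.13 to 11.15 per control array, 10.72 to 10.74 per Pax3 array and 10.94 per Pax7 array. That list holds Pax7 itself, and the 7 others averaged 11.23 to 11.24, 11.09 to 11.10 and 10.74 to 10.75. Among these, Myf5 was higher in Pax3 and Pax7 arrays (9.40, 11.37 and 11.42), and Myod1, Des, Cdh15, Itga7, Ncam1 and Met were lower than in control. The macrophage and leukocyte markers, with 5 of 5 measured, averaged 4.96 to 5.13 on control arrays and 5.50 on Pax7 arrays. Epithelial markers, with 4 of 4 measured, averaged 5.85 to 5.96 on control and 6.75 to 6.83 on Pax7 arrays, with Krt18 at 6.42 and 8.87, Epcam at 5.02 and 5.73, Krt8 at 6.87 and 7.18 and the defining Cdh1 at 5.35 and 5.38. The defining leukocyte marker Ptprc averaged 4.70, 4.74 and 4.73 across the groups in the same order, and Cd68, a lysosomal protein, at 7.36, 8.72 and 9.40. The X-linked Xist averaged 4.77, 11.96 and 11.72 in that order, and the Y-linked Eif2s3y at 8.78, 3.12 and 3.08. Each comparison with control was thus also one between arrays of high and low Y-linked signal, and an effect of the introduced gene and a difference between the cells of origin cannot be told apart. Detection calls were not used here and probe sets differ in brightness, so no gene is called absent.

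Asb4, an adaptor described in vascular and placental development, showed the largest distance. It read 9.80, 9.78 and 9.91 on the control arrays, 5.70, 5.77 and 5.74 on the Pax3 arrays and 4.96, 5.20 and 5.02 on the Pax7 arrays. Every Pax3 and Pax7 array lay over 4 log2 units below the lowest control array, and every Pax7 array below every Pax3 array. Against control, Asb4 was 17.1-fold lower with Pax3 (log2 difference -4.10 ± 0.064, moderated SE, n = 3 per group) and 27.3-fold lower with Pax7 (-4.77 ± 0.064). The step from Pax3 to Pax7 arrays was 1.60-fold (-0.68 ± 0.064). All Pax3 and Pax7 readings of Asb4 lay below every array's median (6.40 to 6.48) and were not shown to be above background. These folds, and the step between Pax3 and Pax7 arrays, are therefore distances between signals and not between transcript amounts. The gene lies on chromosome 6 (5383386 to 5433022, GRCm38.p6).

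Asb2, whose ligase directs filamins to the proteasome during muscle differentiation, lies on chromosome 12 (103321142 to 103356001). It read 8.76, 8.88 and 8.87 on control arrays, 6.33, 6.53 and 6.67 on Pax3 arrays and 6.54, 6.53 and 6.65 on Pax7 arrays. The control arrays stood apart and the other 6 arrays interleaved. Asb2 was 5.02-fold lower in Pax3 and 4.81-fold lower in Pax7 than in control arrays (log2 difference -2.33 ± 0.079 and -2.27 ± 0.079), and Pax7 and Pax3 arrays differed by 0.06 ± 0.079. Its Pax3 arrays had an SD of 0.17, the widest spread of any of the 10 genes in any group. The Pax3 and Pax7 readings of Asb2 lay near the array medians (6.40 to 6.48) and were not shown to be above background. Its folds against control are therefore distances between signals and not between transcript amounts. A difference between Pax3 and Pax7 arrays could have gone unseen. The RNA of filamin A (Flna), one of the substrates of Asb2, read 12.00 on all control arrays and 12.04 to 12.07 on the Pax3 and Pax7 arrays (limma adjusted p = 0.292 and 0.436). Filamin protein was not measured.

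Asb15, an adaptor made in skeletal muscle and encoded on chromosome 6 (24528144 to 24573164), differed less. It read 5.79, 5.83 and 5.60 on control arrays, 5.24, 5.20 and 5.32 on Pax3 arrays and 5.13, 5.06 and 5.09 on Pax7 arrays. The groups did not overlap, though the highest Pax7 array and the lowest Pax3 array were only about as far apart as the Pax3 arrays' SD of 0.063. The log2 differences from control were -0.49 ± 0.064 for Pax3 and -0.65 ± 0.064 for Pax7, and -0.16 ± 0.064 between Pax7 and Pax3. All readings of Asb15 lay below every array's median (6.40 to 6.48) and were not shown to be above background.

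Asb5, a muscle adaptor on chromosome 8 (54550331 to 54587842), differed little between control and Pax3 arrays and more in Pax7 arrays. It read 12.07, 12.01 and 11.99 on control arrays, 11.96, 11.90 and 11.89 on Pax3 arrays and 11.70, 11.55 and 11.66 on Pax7 arrays. The lowest control array and the highest Pax3 array nearly touched, while the Pax7 arrays stood clear below both groups. The difference was -0.11 ± 0.049 for Pax3 and -0.39 ± 0.049 for Pax7 against control, and -0.28 ± 0.049 (1.21-fold) between Pax7 and Pax3. Asb8, on chromosome 15 (98134637 to 98165596), read 9.34, 9.52 and 9.42 on control arrays, 9.13, 9.25 and 9.14 on Pax3 arrays and 9.23, 9.16 and 9.25 on Pax7 arrays. It was 1.19-fold and 1.16-fold lower in Pax3 and Pax7 than in control arrays (-0.25 ± 0.057 and -0.21 ± 0.057), and the Pax3 and Pax7 arrays overlapped.

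Asb11, Asb12 and Asb14 showed no separation. Asb11, an adaptor linked to the maintenance of muscle progenitors, averaged 4.75 ± 0.030, 4.80 ± 0.085 and 4.79 ± 0.059 in control, Pax3 and Pax7 (SD, n = 3). Asb12 averaged 4.01 ± 0.036, 4.04 ± 0.011 and 4.06 ± 0.14, and Asb14 4.17 ± 0.051, 4.16 ± 0.032 and 4.20 ± 0.032. All 9 differences between groups lay between -0.01 and 0.05 log2 units, with SEs of 0.043 to 0.062. Asb11 and Asb12 are X-linked, on chromosome X at 164436953 to 164459170 and 95469527 to 95558004, and the arrays with high Xist did not stand apart from the control arrays in either. The signals of Asb11, Asb12 and Asb14 lay below every array's median (6.40 to 6.48) and were not shown to be above background. A difference could therefore have gone unseen. The deposited values of Asb11, Asb12 and Asb14 were often exactly equal between arrays (6 distinct values over the 9 arrays for Asb11 and 5 each for Asb12 and Asb14). Equal values occurred in 45.4% of all 25668 probe sets.

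Trim63, which marks myosin and other thick-filament proteins for breakdown, lies on chromosome 4 (134315120 to 134329629). It read 7.28, 7.48 and 7.30 on control arrays, the identical value 6.71 on all 3 Pax3 arrays, and 6.39, 6.44 and 6.44 on Pax7 arrays. The groups formed 3 separate steps, and the SD of 0 in Pax3 arrays comes from the repeated deposited value, which is not a measured precision. Trim63 was 1.56-fold lower in Pax3 and 1.91-fold lower in Pax7 than in control arrays (-0.64 ± 0.054 and -0.93 ± 0.054), and 1.22-fold lower in Pax7 than in Pax3 arrays. Its Pax7 readings lay near the array medians (6.40 to 6.48) and were not shown to be above background. The folds that involve Pax7 arrays are therefore distances between signals and not between transcript amounts.

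Fbxo32, whose ligase has MyoD and the translation factor eIF3f among its substrates, lies on chromosome 15 (58175879 to 58214892). It read 8.92, 8.85 and 8.70 on control arrays, 8.09, 8.09 and 7.99 on Pax3 arrays and 7.55, 7.69 and 7.61 on Pax7 arrays. Again the 3 groups formed separate steps. Fbxo32 was 1.70-fold lower in Pax3 and 2.31-fold lower in Pax7 than in control arrays (-0.77 ± 0.063 and -1.21 ± 0.063), and 1.36-fold lower in Pax7 than in Pax3 arrays (-0.44 ± 0.063). In bulk RNA, fewer cells that make a transcript and less of it per cell cannot be told apart.

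In all, 7 of the 10 genes were lower without overlap in Pax3 than in control arrays, against 22.3% of all genes, and 7 of 10 in Pax7 than in control arrays, against 26.2%. Between Pax7 and Pax3 arrays 5 of 10 were lower without overlap, against 14.6% of all genes. None of the 10 was higher without overlap in any comparison, against 22.8%, 29.3% and 14.7% of all genes. Since the genes were chosen from these comparisons, nothing is read from these counts. The median log2 difference of the 10 was -0.37, -0.52 and -0.09 in the 3 comparisons, where that of all genes was 0.02, 0.03 and 0.01. The comparisons of Pax3 and of Pax7 with control share the control arrays, so they are not independent.

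**Figure D2:**
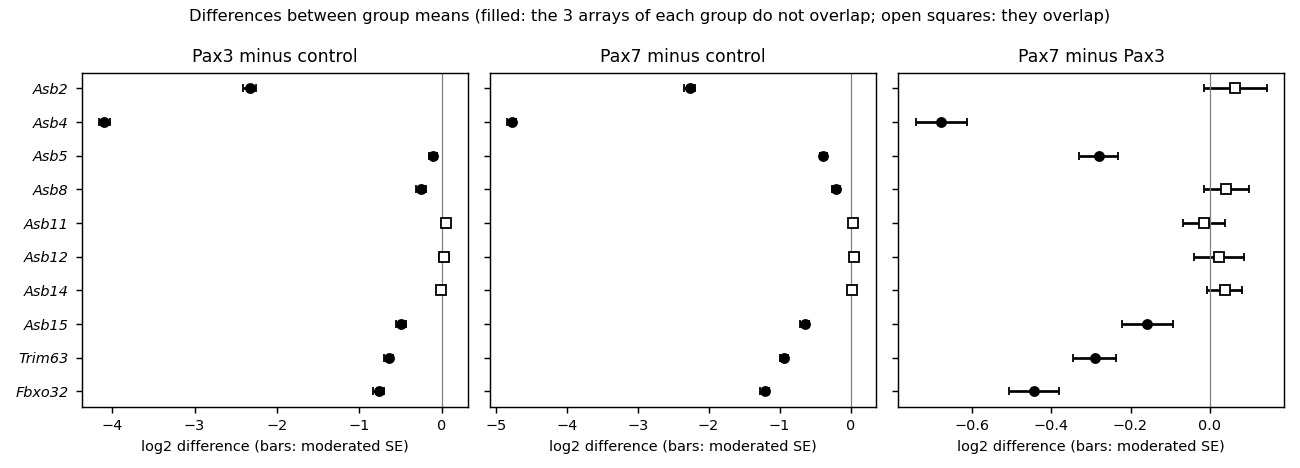
Log2 difference (horizontal axis) between group means for each of the 10 genes in 3 panels, Pax3 minus control, Pax7 minus control and Pax7 minus Pax3; bars are moderated SEs, filled circles mark genes whose arrays do not overlap between the groups and open squares those that do. Asb4 (-4.10 and -4.77) and Asb2 (-2.33 and -2.27) lie far to the left against control, and the horizontal scale of the last panel is much narrower.

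The rest of the Asb family was measured in full, with 10 of 10 genes. It is what remained after the 8 chosen Asb genes were taken out with results known, so its counts are given beside the share of all genes and nothing particular to the family is read from them. Asb1, Asb3, Asb6, Asb7 and Asb13 fell and Asb10 rose in both comparisons with control, against 19.7% of all genes called lower and 19.8% called higher for Pax3 and 21.5% and 21.6% for Pax7. The falls were small. Asb1 read 7.27, 7.58 and 7.53 on control arrays, 6.78, 6.96 and 6.82 on Pax3 arrays and 6.96, 6.93 and 6.89 on Pax7 arrays. Its differences were -0.60 ± 0.078 and -0.53 ± 0.078 (limma adjusted p = 8.22e-05 and 0.000192). Asb13, a close relative of Asb5, Asb9 and Asb11, was at -0.32 ± 0.054 in both comparisons (limma adjusted p = 0.000595 and 0.000537). Asb3 was at -0.32 and -0.33, Asb7 at -0.26 and -0.33, Asb6 at -0.24 and -0.17 and Asb10 at 0.20 and 0.16. The 4 remaining genes, Asb9, Asb16, Asb17 and Asb18, differed by -0.01 to 0.11 and were not called. The signals of these 4 genes and of Asb10 lay below every array's median (6.40 to 6.48). They were not shown to be above background, so differences in the 4 could have gone unseen. The call of Asb10 against control was lost for Pax3 without control 1, control 2 or Pax3 2 (adjusted p up to 0.086) and under 9 alternatives for Pax7 (up to 0.183). The fall of Asb6 in Pax7 arrays was lost without control 2, control 3, Pax7 2 or Pax7 3 (adjusted p up to 0.0715).

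Between Pax7 and Pax3 arrays 0 of these 10 genes were called by limma, 0 had an unadjusted p under 0.05, and 0 were called with a trended, robust prior. Of all genes, 8.33% were called higher and 8.54% lower in that comparison. The differences ranged from -0.07 to 0.07. The signals of Asb9, Asb10, Asb16, Asb17 and Asb18 were not shown to be above background, so a difference in these could have gone unseen. The median of the 10 other Asb genes was -0.12, -0.08 and 0.01 in the 3 comparisons.

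**Figure D3:**
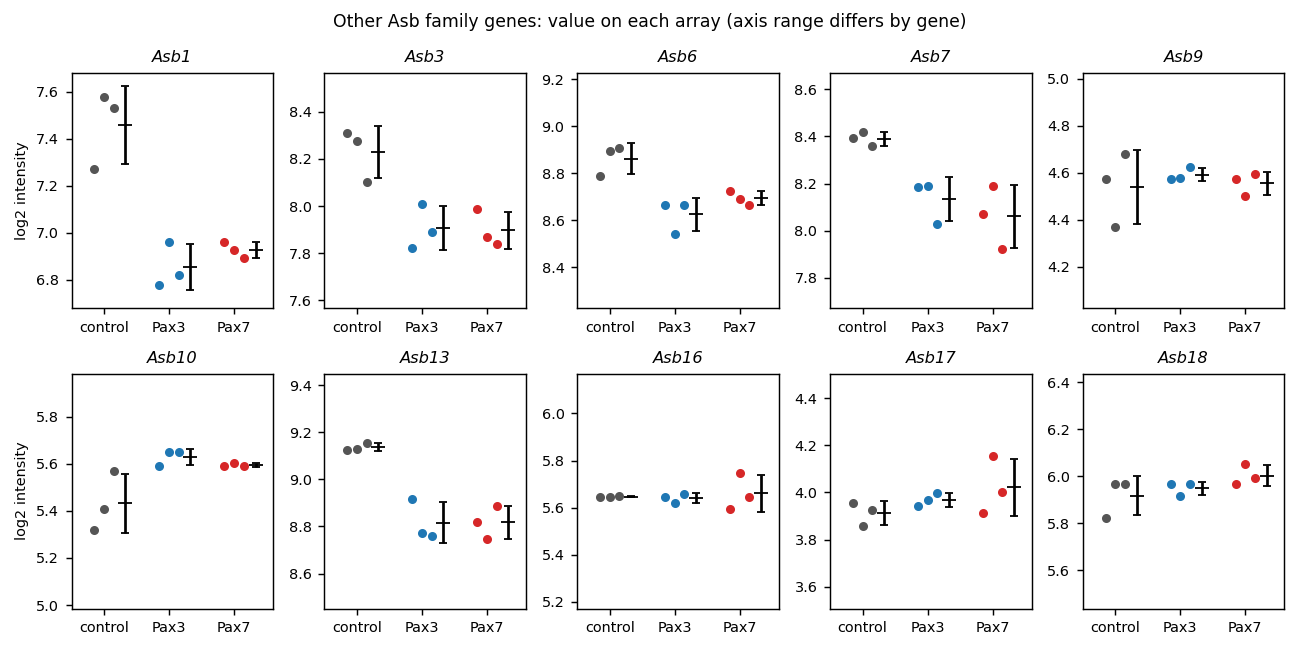
Log2 intensity (vertical axis) of the 10 Asb genes outside the chosen set, on each array (points) in control, Pax3 and Pax7 arrays, with the mean and SD of 3 arrays; the axis range differs by gene. Control points of Asb1, Asb3, Asb6, Asb7 and Asb13 lie above all Pax3 and Pax7 points, by less than 1 log2 unit.

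The core of the cullin-5 ligase onto which Asb adaptors dock was lower in part. This list and those that follow were also chosen with earlier results of these data known. Their counts and p-values are therefore descriptive, and nothing particular to a list is read from them. Of 11 measured genes of this core and of cullin neddylation (12 listed), 7 fell and 0 rose in Pax3 arrays, and 9 fell and 0 rose in Pax7 arrays (0 higher at an unadjusted p under 0.05 in either). Of all genes, 19.7% and 21.5% were called lower in these comparisons and 19.8% and 21.6% higher. Elongin C (Eloc) read 11.30, 11.43 and 11.31 on control arrays, 10.46, 10.46 and 10.44 on Pax3 arrays and 10.31, 10.34 and 10.39 on Pax7 arrays. Against control it was 1.86-fold lower with Pax3 and 2.00-fold lower with Pax7 (limma adjusted p = 5.63e-08 and 1.57e-08). Its partner elongin B (Elob) was at 0.03 and 0.04 and was not called (adjusted p = 0.594 and 0.524). The RING subunit Rnf7, which pairs with cullin-5, was at -0.37 ± 0.068 and -0.51 ± 0.068. Rbx1, the RING subunit of other cullins, was at -0.38 ± 0.068 in Pax3 and -0.21 ± 0.068 in Pax7 arrays. The deneddylase subunit Cops5 was at -0.33 ± 0.070 in Pax3 and -0.42 ± 0.070 in Pax7 arrays. Cul5 itself was at -0.08 ± 0.069 in Pax3 arrays (adjusted p = 0.419) and at -0.22 ± 0.069 in Pax7 arrays (adjusted p = 0.0242), a call lost without control 1, control 2 or Pax7 2 (up to 0.101). The list's median was -0.28 and -0.22. Between Pax7 and Pax3 arrays limma called 0 of the 11, with 3 at an unadjusted p under 0.05, 1 with a trended, robust prior, 1 without Pax3 2 and 3 without Pax3 3. Over all genes 8.33% were called higher and 8.54% lower in that comparison.

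Other ubiquitin ligases and ligase adaptors of muscle included the relatives of Trim63 and some of the strongest differences. Of 25 measured genes (27 listed), 12 fell and 3 rose in each comparison with control, and 5 fell and 3 rose in Pax7 against Pax3 arrays, with medians of -0.15, -0.13 and -0.04. The shares of all genes called were 19.7%, 21.5% and 8.54% lower and 19.8%, 21.6% and 8.33% higher. The cullin-3 adaptor Klhl41, which stabilises nebulin and thin filaments, read 10.39, 10.52 and 10.39 on control arrays, 8.03 on all 3 Pax3 arrays and 7.17, 7.19 and 6.79 on Pax7 arrays (limma adjusted p = 4.99e-09 and 2.17e-10 against control). Klhl31 was at -2.28 ± 0.048 and -2.83 ± 0.048, and Trim72 (MG53), a membrane repair protein, at -1.18 ± 0.061 and -1.92 ± 0.061. The 2 close relatives of Trim63 did not follow the same order. Trim55 (MuRF2) read 10.22, 10.25 and 10.15 on control arrays, 9.23, 9.32 and 9.19 on Pax3 arrays and 8.44, 8.31 and 8.34 on Pax7 arrays, while Trim54 (MuRF3) read 9.39, 9.52 and 9.38, then 8.28, 8.40 and 8.33, then 8.75, 8.69 and 8.76. Trim55 was thus lower in Pax7 than in Pax3 arrays (-0.88 ± 0.053) and Trim54 higher (0.39 ± 0.053; limma adjusted p = 1.03e-06 and 0.000368). Klhl40, which stabilises thin-filament proteins, was at -0.64 ± 0.065 and -1.30 ± 0.065. The muscle F-box gene Fbxo40 was at -0.43 ± 0.10 and -0.47 ± 0.10 against control. Pax7 readings of Trim72, Klhl40 and Fbxo40 lay near or below the array medians (6.40 to 6.48) and were not shown to be above background. The largest rise of the list against control was that of Nedd4l, at 0.53 and 0.88.

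Regulators of the atrophy ligases moved both ways. Of 37 measured (38 listed), 12 rose and 12 fell in Pax3 arrays, 15 rose and 12 fell in Pax7 arrays, and 9 rose and 5 fell in Pax7 against Pax3 arrays, with medians of -0.04, 0.02 and 0.07. Over all genes 19.8%, 21.6% and 8.33% rose and 19.7%, 21.5% and 8.54% fell. Myog read 11.55, 11.65 and 11.50 on control arrays, 10.24, 10.25 and 10.32 on Pax3 arrays and 9.13, 9.26 and 9.01 on Pax7 arrays, the same order of groups as Trim63 and Fbxo32. That order was not particular to Myog. Igf2 (means 12.30, 10.95 and 10.15) and Acvr2a (9.57, 8.14 and 7.85), among others of the list, had it too. Against control, Foxo1 was 1.28-fold lower with Pax3 and 1.31-fold lower with Pax7 (limma adjusted p = 0.000145 and 6.93e-05). Foxo3 was at 0.13 ± 0.060 and 0.02 ± 0.060 (adjusted p = 0.108 and 0.861), and was called in Pax3 arrays when control 3 was left out (0.0153). Foxo4 was at -0.06 ± 0.062 in Pax3 arrays (0.506) and rose by 0.20 ± 0.062 in Pax7 arrays (limma adjusted p = 0.0212), a call lost without control 1, control 3, Pax7 1 or Pax7 2 (up to 0.0843). It was higher in Pax7 than in Pax3 arrays by 0.26 ± 0.062 (0.0134), a call lost without Pax3 1 or Pax7 2 (up to 0.0595). The glucocorticoid receptor Nr3c1 rose, by 0.32 ± 0.049 and 0.70 ± 0.049 (adjusted p = 0.000258 and 4.31e-07), as did its target Klf15, by 0.37 ± 0.099 and 0.53 ± 0.099 (the former at adjusted p = 0.0517 without control 2).

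Among signalling genes of that list, follistatin (Fst), an inhibitor of myostatin and activin, was at -3.24 ± 0.078 and -2.43 ± 0.078, and the activin receptor Acvr2a at -1.43 ± 0.067 and -1.72 ± 0.067. The receptors Acvr1b (0.26 and 0.41) and Tnfrsf1a (0.23 and 0.56) rose, and Acvr2b, Igf1r and Tnf were not called in either comparison (differences of -0.17 to 0.05). Acvr1b lost its call in Pax3 arrays without control 3 (limma adjusted p = 0.0562), and Acvr2b gained one there without Pax3 3 (0.000565). The growth factor Igf2 was at -1.34 ± 0.057 and -2.14 ± 0.057 and Igf1 at -0.64 ± 0.063 and -0.58 ± 0.063. The signals of Igf1 and Tnf lay below every array's median (6.40 to 6.48) and were not shown to be above background. Myostatin (Mstn) was at -0.04 ± 0.14 in Pax3 arrays (limma adjusted p = 0.857) and at -0.80 ± 0.14 in Pax7 arrays (0.000573). Il6 read 3.43, 3.56 and 3.19 on Pax3 arrays and 4.54, 4.11 and 4.04 on Pax7 arrays (limma adjusted p = 0.000961), and no fold is given because its signal was not shown to be above background. The part of Myog or of any other regulator in the values of the 10 genes was not tested.

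Genes of reported substrates of these ligases fell in part, and several are sarcomere or muscle metabolism genes. These are RNA values. Neither substrate protein nor ligase activity was measured, so nothing about how the ligases acted is read from them. Of 12 measured (13 listed), 6 fell and 1 rose in Pax3 arrays, 6 fell and 0 rose in Pax7 arrays (1 was higher at an unadjusted p under 0.05), and 5 fell and 0 rose in Pax7 against Pax3 arrays (0 higher at an unadjusted p under 0.05). Over all genes 19.7%, 21.5% and 8.54% fell and 19.8%, 21.6% and 8.33% rose. The medians of the list were -0.20, -0.33 and -0.10. Muscle creatine kinase Ckm was at -2.80 ± 0.046 and -3.28 ± 0.046, and the brain isoform Ckb, a substrate of the related Asb9, at -2.00 ± 0.061 in both comparisons. The myosin light chain Myl1 was at -0.69 ± 0.11 in Pax3 arrays and -2.93 ± 0.11 in Pax7 arrays, and was 4.70-fold lower in Pax7 than in Pax3 arrays (limma adjusted p = 2.01e-07). Desmin (Des) and the myosin-binding protein Mybpc1 were lower in Pax7 than in Pax3 arrays by the log2 differences -0.81 ± 0.042 and -1.24 ± 0.097.

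Of the proteasome, which degrades what these ligases mark, 28 subunits were measured, and none of the listed ubiquitin genes was measured through a probe set with a single symbol. In Pax3 arrays 16 fell and 0 rose, and in Pax7 arrays 16 fell and 0 rose (0 higher at an unadjusted p under 0.05 in either), where 19.7% and 21.5% of all genes fell and 19.8% and 21.6% rose. The falls were shallow, with medians of -0.17 and -0.15. Psmd2 read 12.04, 12.06 and 12.06 on control arrays, 11.40, 11.59 and 11.44 on Pax3 arrays and 11.57, 11.58 and 11.57 on Pax7 arrays (limma adjusted p = 3.99e-06 and 1.49e-05), and Psmc2 was at -0.43 and -0.41. The count in Pax7 arrays dropped to 9 without control 1, 8 without control 2, 9 without Pax7 1 and 10 without Pax7 3. Between Pax7 and Pax3 arrays 2 subunits rose, Psma7 and Psmc5 (0.23 ± 0.053 and 0.17 ± 0.047), and both calls were lost without Pax3 1 or Pax7 2, that of Psmc5 under 7 alternatives in all (adjusted p up to 0.0578 and 0.103). None fell (0 lower at an unadjusted p under 0.05). Over all genes 8.33% rose and 8.54% fell in that comparison. The count of subunits called there was 0 without Pax3 1 or Pax7 2, 4 without Pax3 2, and 1 without Pax3 3, Pax7 1 or Pax7 3.

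Autophagy and lysosome genes, the other degradation route of atrophying muscle, rose more often than they fell. Of 19 measured (21 listed), 10 rose and 3 fell in Pax3 arrays and 11 rose and 4 fell in Pax7 arrays, and 4 rose and 0 fell in Pax7 against Pax3 arrays (0 lower at an unadjusted p under 0.05). Over all genes 19.8%, 21.6% and 8.33% rose and 19.7%, 21.5% and 8.54% fell in these comparisons. The medians of the list were 0.20, 0.33 and 0.10. The lysosomal proteases cathepsin B (Ctsb) and cathepsin L (Ctsl) rose by 0.78 ± 0.038 and 0.70 ± 0.059 in Pax3 arrays and by 0.88 ± 0.038 and 0.84 ± 0.059 in Pax7 arrays. Bnip3, a mitophagy receptor, rose by 0.63 ± 0.061 in Pax3 arrays, and averaged 9.30, 9.93 and 10.04 in control, Pax3 and Pax7 arrays. The Gabarapl2 signal fell, at -0.77 ± 0.16 in Pax7 arrays (limma adjusted p = 0.00272), and averaged 5.36, 4.74 and 4.59 in the same order. It lay below every array's median (6.40 to 6.48) and was not shown to be above background. Tfeb, a transcription factor for lysosomal genes, was higher in Pax7 than in Pax3 arrays by 0.39 ± 0.042 (limma adjusted p = 7.54e-05). The lysosomal protein Cd68, which is not in this list or its counts, was also higher in Pax3 and Pax7 than in control arrays.

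**Figure D4:**
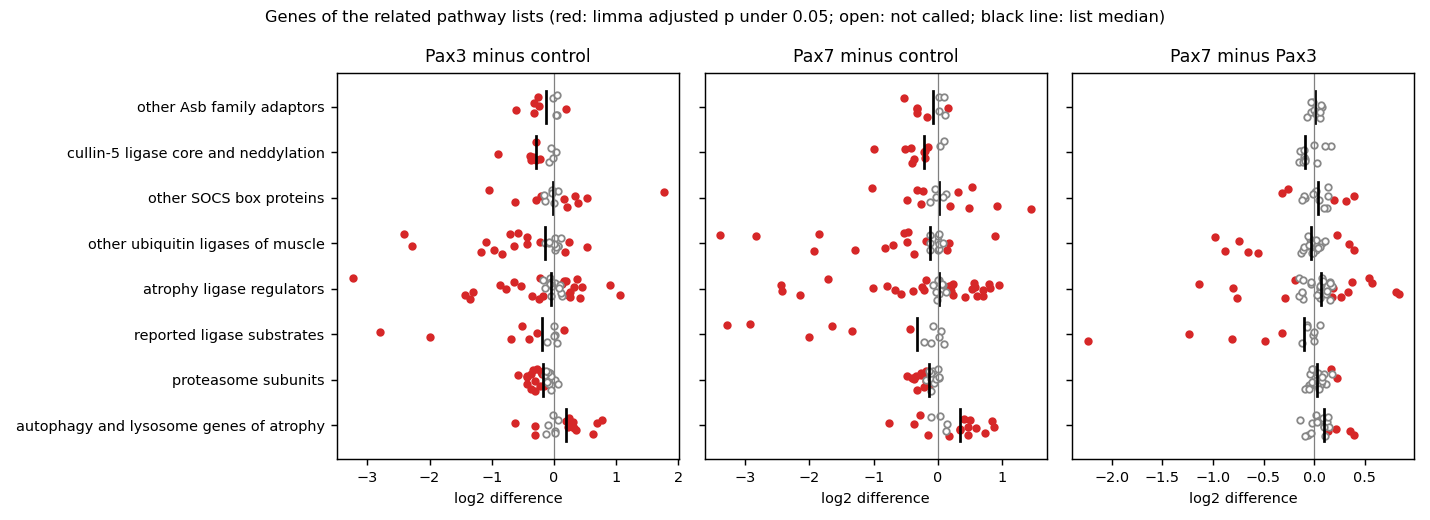
Log2 difference (horizontal axis) of each gene of 8 related lists (rows; position within a row is jitter) in the 3 comparisons; red points were called (limma adjusted p under 0.05), open points were not, and the black line is the list's median. Points of the cullin-5 and proteasome lists lie mostly left of 0 in the comparisons with control, with medians of -0.28 and -0.17 for Pax3, and those of the autophagy list mostly right, with a median of 0.20.

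Genes with the nearest pattern were found by the Euclidean distance between gene-centred log2 values over the 9 arrays. For Asb4 these were Islr (distance 0.406), Rbfox1 (0.911), Prr32 (0.916), Camk1g (0.936) and Timp3 (0.965). Islr was at -4.14 from control to Pax3 and -4.58 from control to Pax7. For Trim63 the nearest were Fgf21 (0.148), Bmper (0.160), Prorsd1 (0.172), Stox2 (0.179) and Pkp2 (0.193). Fbxo32 lay nearest to Cacna2d1 (0.220), H1f2 (0.226), Synpo2l (0.232), Pakap (0.235) and Zfp354c (0.238). Distances are smaller for genes with small differences, so they do not compare between the 3 genes.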

How the data were processed

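Affymetrix mouse arrays measured biotin-labelled RNA of 9 samples. The authors deposited log2 intensities per probe set, made by RMA (background correction, quantile normalisation and summary over probes) in R 2.10.0, per the submitters' processing notes. Neither filters nor a genome build is given in the sources used here. Of 25668 probe sets, 20777 had 1 gene symbol in the platform annotation, 232 several and 4659 none, and 20696 matched a RefSeq gene table. Each of 19661 genes was represented by its probe set of highest mean. All 9 arrays entered 1 model of group means in limma 3.58.1 in R 4.3.3 (residual df 6, prior df 4.37), with Benjamini-Hochberg adjustment over all genes and calls under 0.05. The script was tested on simulated data.

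The 10 members and the 8 pathway lists were chosen with earlier results of these data known. From each list the text names up to 3 called genes per comparison with the largest difference, and all called Asb genes. Rbx1, Cops5, Socs6, Spsb2, Bnip3 and Gabarapl2 are given in both comparisons with control. For each, the value outside that rule was added after it was seen. Elob, Cul5, Flna, Trim54, Klhl40, Fbxo40, the FoxO genes, Nr3c1, Klf15, Igf1, Nedd4l, Acvr1b, Acvr2b, Igf1r, Tnf and Tnfrsf1a were named after their values were seen. So were Mstn, Acvr2a, Igf2, Trim55, Des and Myog in comparisons where they were not among those 3, and genes given in the accounts of cell markers. The main model did not pair arrays by replicate number. Same-numbered arrays of different groups had deviations from their group means correlated at -0.026 to 0.225. Differently numbered arrays had them at -0.247 to 0.246. These ranges overlap and do not settle whether the numbers pair the arrays. Alternatives were a replicate block, leaving out each array, leaving out the dimmest 50% of genes, averaging probe sets, median centring and a trended, robust prior.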

Additional observations from a re-analysis of the deposited data

How the results depend on the processing

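All 330 alternative values of the 10 genes' differences moved by less than 1 SD between replicates, pooled over groups. The alternatives were leaving out each array, averaging probe sets and centring each array on its median. Leaving out 1 of 3 arrays cannot move a difference by more than this SD, so those values had to pass and test nothing. Only averaging and centring could have moved a difference further. With a replicate block 7902, 8707 and 3328 genes were called (Pax3 minus control, Pax7 minus control, Pax7 minus Pax3), against 7780, 8485 and 3316 without it; leaving out 1 array gave 6903 to 7753, 7519 to 9253 and 2507 to 4277. Of 378 alternative counts, over all genes and over lists, 362 stayed within 1.5 times. The exceptions were small counts. Proteasome subunits called in Pax7 against control arrays numbered 8 to 18 when 1 array was left out, and those between Pax7 and Pax3 arrays numbered 0 to 4, 1 with the replicate block and 1 with median centring. Cullin-5 genes called between Pax7 and Pax3 arrays numbered 0 to 3 when 1 array was left out, 1 without the dimmest genes and 1 with a trended, robust prior. Of 108 calls of genes taken by the naming rule or added to it, some of them not printed, 97 passed under every alternative run, 11 were lost under 1 or more and 0 reversed. The values added outside the rule for Rbx1, Cops5, Socs6, Spsb2, Bnip3 and Gabarapl2 were not among them. With 3 arrays per group, differences near the smallest called ones (Asb10 at 0.16) depend on single arrays.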

Other observations

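Proteins other than Asb adaptors also dock onto elongins through a SOCS box, and their genes moved in both directions. Of 16 measured (16 listed), 6 rose and 4 fell in Pax3 arrays, 6 rose and 5 fell in Pax7 arrays, and 3 rose and 2 fell in Pax7 against Pax3 arrays, with medians of -0.02, 0.02 and 0.04. Over all genes 19.8%, 21.6% and 8.33% rose and 19.7%, 21.5% and 8.54% fell. Socs2, a feedback inhibitor of growth hormone signalling, read 6.96, 6.95 and 6.89 on control arrays, 8.69, 8.74 and 8.67 on Pax3 arrays and 8.37, 8.40 and 8.38 on Pax7 arrays (limma adjusted p = 1.2e-10 and 2.74e-10 against control, and 0.000288 between Pax7 and Pax3). Socs1, an inhibitor of interferon signalling, read 8.55, 8.79 and 8.82 on control arrays and between 7.61 and 7.75 on the other 6. Socs6 rose by 0.53 ± 0.074 in Pax3 and 0.92 ± 0.074 in Pax7 arrays. Spsb2 was at -0.62 ± 0.060 in Pax3 and -0.48 ± 0.060 in Pax7 arrays. Wsb2 was higher in Pax7 than in Pax3 arrays by 0.32 ± 0.045.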
